A study of Mus musculus with 12 samples.

Results

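The Ink4 locus of the mouse holds Cdkn2a and Cdkn2b, neighbouring genes for inhibitors of the cell cycle. It was taken here as the stretch of chromosome 4 from 88900000 to 88970000 of the mm9 build, and its members were all peaks that overlapped this stretch in the deposited peak lists. Of 128880 peaks in 8 lists, 27 were members, 12 of them H3K4me3 peaks and 15 H3K27me3 peaks. Within the stretch Cdkn2a lies at about 88920000 to 88941000 and Cdkn2b at about 88952000 to 88957000. These approximate spans come with the definition of the locus, and no exon or base-level start was placed in mm9.

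The marks were measured by chromatin immunoprecipitation with sequencing (ChIP-seq) in primary cultures of mouse embryonic fibroblasts (MEFs), whose strain background was hybrid 129/B6. The conditions were lincRNA-p21-/- (KO) MEFs with doxorubicin, KO MEFs with mock treatment, lincRNA-p21+/+ (WT) MEFs with doxorubicin and WT MEFs with mock treatment. The RNA missing in KO cells, lincRNA-p21, is long and noncoding and is switched on by p53. Doxorubicin damages DNA, and the labels give 0.5 mM over 24 h, a unit that was not checked. The study asked about this RNA in the expression of Polycomb targets and in the G1/S checkpoint. Each mark had 1 library in each of the 4 conditions, without replicates, and no test between conditions was made. The 4 input libraries (chromatin sequenced without antibody) were not analysed here. The number of embryos or cultures behind a library is not given in the sources used here. In bulk chromatin, a mark carried by fewer cells and a weaker mark in every cell cannot be told apart.

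Cdkn2a makes different proteins from separate first exons. The upstream start gives Arf, which binds Mdm2 and so stabilises p53, and the internal start gives p16Ink4a, which inhibits the cyclin D kinases Cdk4 and Cdk6 and keeps Rb active. Cdkn2b gives p15Ink4b, an inhibitor of the same kinases. In young fibroblasts the locus is known to be held down by Polycomb complexes, which place H3K27me3, and to become active as cells are passaged or senesce. H3K4me3 marks active or poised promoters, and its presence with H3K27me3 at a start is called bivalent. Both genes are read from the minus strand, so that their 5′ ends lie at the higher coordinates.

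The RefSeq promoter table (build GRCm38.p6, chromosome 4, minus strand) held 3 starts for the 2 genes, in the order internal Cdkn2a start, upstream Cdkn2a start and Cdkn2b start along the chromosome. They are shown because H3K4me3 formed 3 peaks in the same order. The lines give the 250 bases before each start, 5′ to 3′, with every CpG in capitals. Their coordinates are in another build than the peaks and are not given.
Cdkn2a, upstream start (Arf): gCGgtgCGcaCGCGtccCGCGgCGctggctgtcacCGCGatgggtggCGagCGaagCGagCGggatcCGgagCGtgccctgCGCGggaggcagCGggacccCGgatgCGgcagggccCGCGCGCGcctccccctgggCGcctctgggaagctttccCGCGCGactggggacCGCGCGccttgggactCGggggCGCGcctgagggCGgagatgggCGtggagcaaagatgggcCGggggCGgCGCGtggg
Cdkn2a, internal start (Ink4a): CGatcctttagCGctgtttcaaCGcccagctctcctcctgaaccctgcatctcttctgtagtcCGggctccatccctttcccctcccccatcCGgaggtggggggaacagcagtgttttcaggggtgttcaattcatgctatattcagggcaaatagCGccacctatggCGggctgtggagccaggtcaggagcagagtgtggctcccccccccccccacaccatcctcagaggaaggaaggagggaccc
Cdkn2b: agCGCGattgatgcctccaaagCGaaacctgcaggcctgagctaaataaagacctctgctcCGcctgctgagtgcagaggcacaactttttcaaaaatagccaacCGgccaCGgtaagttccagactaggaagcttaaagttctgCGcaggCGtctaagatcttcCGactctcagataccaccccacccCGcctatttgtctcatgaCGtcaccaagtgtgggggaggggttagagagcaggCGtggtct

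The 3 promoters differed in base composition. The Arf promoter was 78.4% G or C and held 40 CpGs, more than 98.7% of the 32851 promoters in the table. The Ink4a promoter was 60.0% G or C with 7 CpGs, and the Cdkn2b promoter was 53.6% G or C with 12 CpGs, against medians of 52.4% and 6 over the table. The ratio of observed to expected CpG was 1.08 at Arf, 0.316 at Ink4a and 0.67 at Cdkn2b, with a median of 0.373. The motif GGGCGG, read on both strands, occurred 2 times at Arf and in neither other promoter, and 32.7% of all promoters held it. CGCGCG occurred 4 times at Arf, counting overlaps, and 9.17% of promoters held it. GGGAAA occurred 1 time each at Arf and at Ink4a (21.9% of promoters). TATAAA (12.4%), CCAAT (33.8%) and CACGTG (6.02%) were found in none of the 3 windows. Matches of this kind describe letters and are not binding sites.

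The lists as a whole differed in ways that touch every length given here. They held 14326 to 16477 H3K4me3 peaks and 16160 to 17828 H3K27me3 peaks. WT mock had the widest peaks of both marks, with medians of 2029 bp for H3K4me3 and 2015 bp for H3K27me3, against 1723.5 to 1777 bp and 1310 to 1475 bp in the other conditions. The score of a peak is the authors' own, 10 times the negative log10 of its p-value, and no list held a score under 80. Scores were used to place a peak within its own list and not to compare libraries. Peak lists give no read counts, so the depth of each library is unknown. Fibroblast marker genes were not checked, since no mm9 annotation was used.

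H3K4me3 formed the same 3 peaks in every condition, and H3K27me3 covered the 3′ part of Cdkn2a and the sequence beyond it. The H3K4me3 peaks lay inside Cdkn2a, across its 5′ end and across the 5′ part of Cdkn2b. They are called the Ink4a-side, Arf-side and Cdkn2b peaks below, by their order along the genes. Joined over the 4 libraries they spanned 88926788 to 88929143, 88938646 to 88942641 and 88953194 to 88957509. The gaps between them were 9.5 kb and 10.6 kb. H3K27me3 was listed in no library within the Cdkn2b span.

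**Figure D1:**
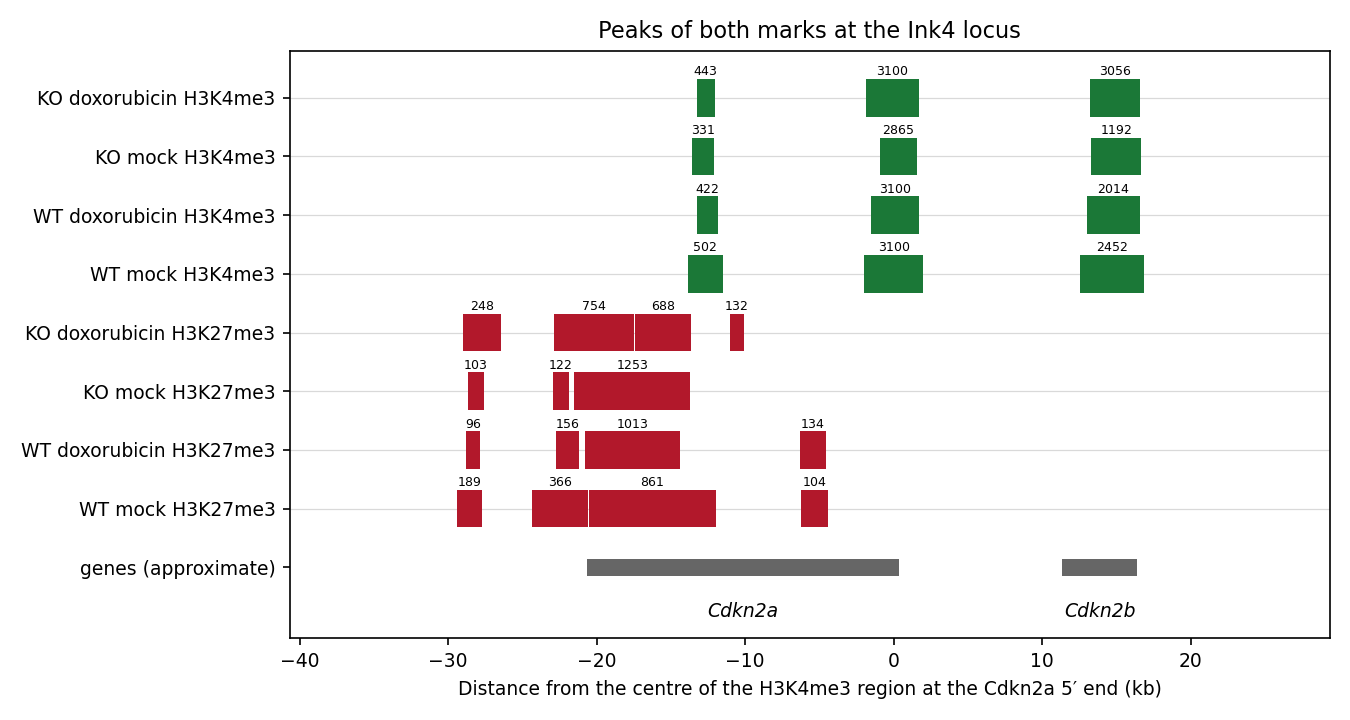
Peaks of both marks at the Ink4 locus in the 8 libraries. The horizontal axis gives the distance in kb from the centre of the joined Arf-side H3K4me3 region, in the direction of the chromosome (both genes are read from right to left), each bar is a listed peak with its score above it, and grey bars are the approximate gene spans. H3K4me3 has 3 peaks in every library, and H3K27me3 lies to the left of the Arf-side peak in all of them.

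The Arf-side H3K4me3 peak was among the high-scoring peaks of its lists. It was 3564 bp wide in KO doxorubicin, 2512 bp in KO mock, 3253 bp in WT doxorubicin and 3996 bp in WT mock cells. KO mock had the narrowest peak and WT mock the widest. The score stood at the value of 3100, at which many peaks pile up, in KO doxorubicin, WT doxorubicin and WT mock, and at 2865.14 in KO mock. Scores were lower for 64.6% of the KO doxorubicin list (with 33.5% tied), 89.4% of the KO mock list and 81.9% of the WT mock list (16.4% tied), and in WT doxorubicin 18.2% of the list was tied. By width, 93.8%, 79.9%, 89.4% and 93.4% of the peaks in those lists, in the same order, were narrower.

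The Ink4a-side H3K4me3 peak was weak in every list. Its score was 443.1 in KO doxorubicin, 330.94 in KO mock, 421.97 in WT doxorubicin and 502.13 in WT mock cells, above just 20.9 to 24.0% of the peaks in the same list. Its width was 1198 bp in KO doxorubicin, 1471 bp in KO mock, 1442 bp in WT doxorubicin and 2356 bp in WT mock cells. The WT mock peak was the widest, wider than 62.9% of its list, against 24.4 to 37.1% in the other 3.

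The Cdkn2b H3K4me3 peak was wide, with a score near or above the middle of each list. Its width was 3407 bp in KO doxorubicin, 3372 bp in KO mock, 3571 bp in WT doxorubicin and 4316 bp in WT mock cells, and 92.3 to 95.2% of the peaks in the same list were narrower. Its score was 3056.23 in KO doxorubicin, 1192.41 in KO mock, 2013.98 in WT doxorubicin and 2452.12 in WT mock cells, above 63.9%, 51.0%, 60.9% and 71.2% of their lists. The peak covered 63.2%, 61.0%, 67.5% and 76.1% of the approximate Cdkn2b span in the same order.

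**Figure D2:**
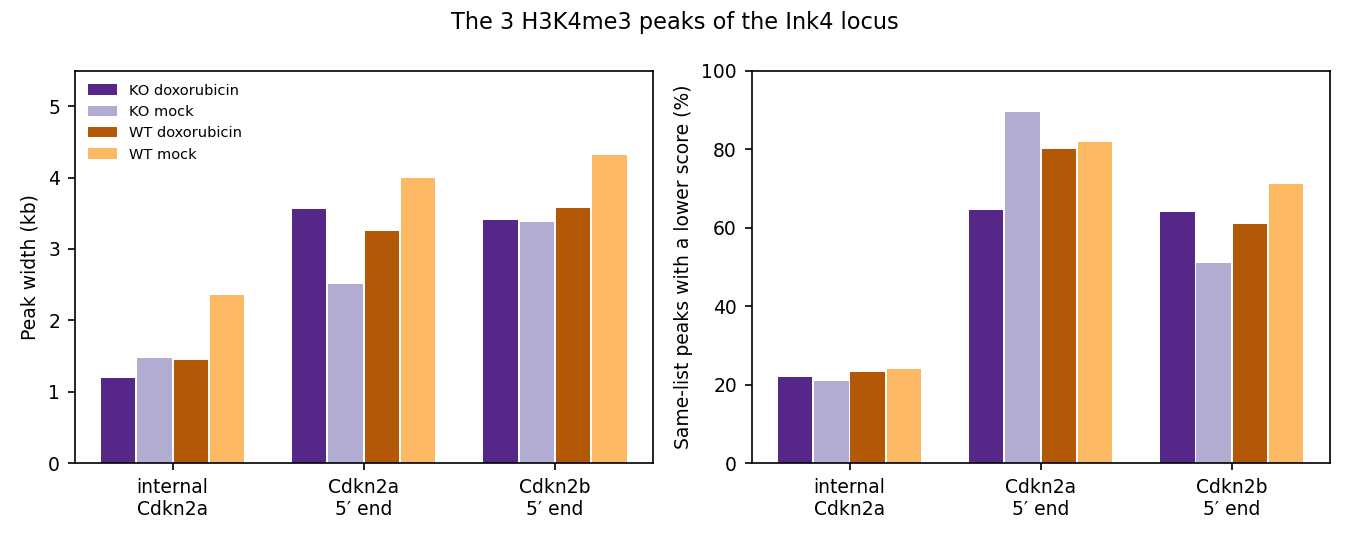
Width in kb (left) and share of peaks in the same list with a lower score, in percent (right), of the 3 H3K4me3 peaks of the Ink4 locus, with 1 bar per library. The Ink4a-side peak is the narrowest and lies at 20.9 to 24.0% of its lists, and WT mock has the widest peak at each of the 3 places; ties at the score of 3100 lower the right-hand bars of the Cdkn2a 5′ end.

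H3K27me3 was arranged around a block of 12.4 kb from 88916324 to 88928710, made of 2 adjoining peaks in each library. Peaks covered 9.17 kb of it in KO doxorubicin, 8.86 kb in KO mock, 7.94 kb in WT doxorubicin and 12.4 kb in WT mock cells. WT mock had the longest block and WT doxorubicin the shortest. The breaks between the 2 peaks of a block were 85 bp, 374 bp, 393 bp and 26 bp in the same order. The first peak ended at 88923161 in KO doxorubicin, 88918758 in KO mock, 88919454 in WT doxorubicin and 88920082 in WT mock cells. The higher-scoring of the 2 peaks was the one at lower coordinates in KO doxorubicin and the one at higher coordinates in the other conditions. It had 754.14 in KO doxorubicin, 1252.8 in KO mock, 1012.53 in WT doxorubicin and 861.14 in WT mock cells. These scores were above 91.3%, 94.6%, 94.4% and 92.4% of their lists. By width the higher-scoring peak ranked 962, 467, 769 and 668 in lists of 17828, 16580, 17517 and 16160 peaks. The other block peak had 688.42 in KO doxorubicin, 122.21 in KO mock, 156.35 in WT doxorubicin and 365.84 in WT mock cells. These scores were above 90.4%, 38.7%, 54.2% and 79.3% of their lists. They too come from different stretches, since this peak began at 88923247 in KO doxorubicin cells and ended by 88920082 in the other conditions. The scores of the block peaks are therefore not a comparison of the same sequence.

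Smaller H3K27me3 peaks lay on both sides of the block. A peak beyond the 3′ end of Cdkn2a, between 88911260 and 88914222, was listed in all 4 libraries with 2603 bp in KO doxorubicin, 1091 bp in KO mock, 975 bp in WT doxorubicin and 1665 bp in WT mock cells. Its scores were 247.64, 102.58, 96.41 and 188.76 in that order. Those of KO mock and WT doxorubicin cells lay close to the floor of 80. Between the Ink4a-side and Arf-side H3K4me3 peaks, both WT libraries listed a peak at 88934343 to 88936201, of 1713 bp and score 134.04 in WT doxorubicin and 1798 bp and score 104.47 in WT mock cells. KO cells had no peak there, and KO doxorubicin cells alone had a peak of 888 bp and score 132.24 at 88929649 to 88930536. These scores exceed 24.8 to 45.7% of their lists, and the 104.47 of WT mock also lay close to the floor. Peaks are numbered along the chromosome, and 1 number is missing in the KO mock list between the block and the next listed peak 303 kb further on, so whether a peak under the floor was called at this place in KO mock cells is unknown. In KO doxorubicin cells 2 numbers are missing in the 313 kb above the 888-bp peak. The WT doxorubicin list lacks 1 number in the 8.09 kb between the block and its next peak. That gap holds the place of the 888-bp peak, so whether a peak under the floor was called there in WT doxorubicin cells is unknown.

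Cdkn2a and the sequence beyond its 3′ end carried all of the H3K27me3. In total H3K27me3 covered 12.7 kb of the 70-kb stretch in KO doxorubicin, 9.95 kb in KO mock, 10.6 kb in WT doxorubicin and 15.8 kb in WT mock cells. The approximate Cdkn2a span was covered to 37.3%, 33.1%, 38.0% and 49.9% in the same order. H3K4me3 covered 8.17 kb, 7.36 kb, 8.27 kb and 10.7 kb of the stretch. WT mock was the highest for both marks and KO mock the lowest for both.

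**Figure D3:**
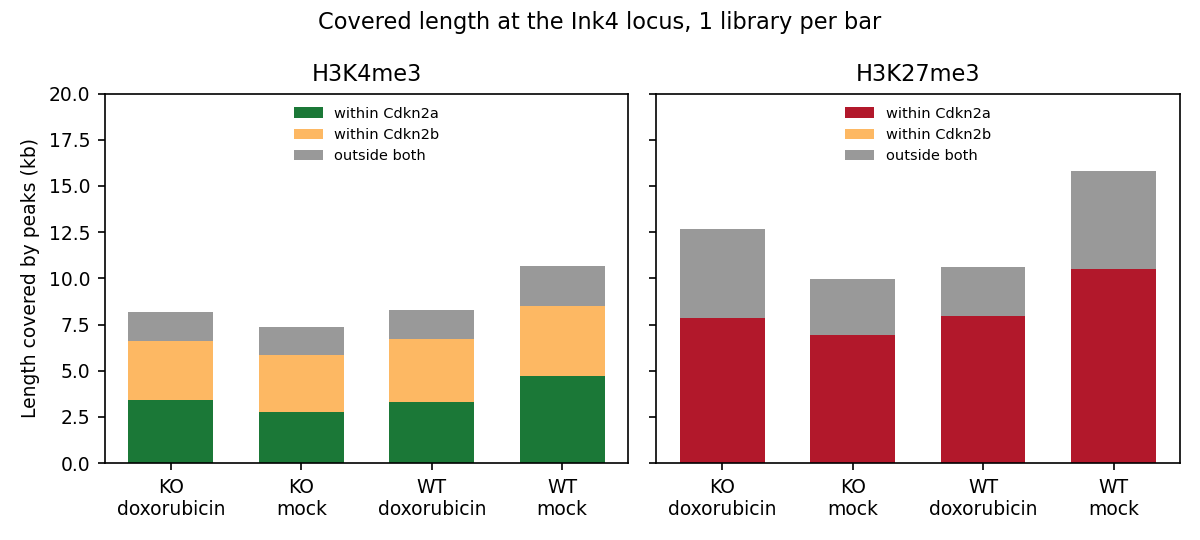
Length in kb covered by peaks at the Ink4 locus, for H3K4me3 (left) and H3K27me3 (right), with 1 library per bar and no error bars because there are no replicates. Colours split the length by the approximate gene spans. H3K27me3 has no part within Cdkn2b, and WT mock has the longest bar in both panels, with 10.7 kb and 15.8 kb.

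A core common to the 4 conditions could be separated from variable edges. Of 18.1 kb covered by H3K27me3 in any library, 8.31 kb (45.9%) was covered in all 4, most of it in a pair of stretches from 88920109 to 88923161 and from 88923247 to 88926257, inside the 3′ part of Cdkn2a. WT mock alone had 3.59 kb and KO doxorubicin alone 2.06 kb, and the WT libraries alone shared 1.65 kb. Of the 10.7 kb covered by H3K4me3 in any library, 6.91 kb (64.7%) was covered in all 4. All of this H3K4me3 length lay within the WT mock peaks, and 1.61 kb of it was found in WT mock alone. WT mock was also the list with the widest peaks. The same shares were not computed for the rest of the genome, so a core and variable edges are not shown to be particular to the locus. Between the lists compared, 25.5 to 36.3% of all H3K27me3 peaks and 1.94 to 11.9% of all H3K4me3 peaks had no counterpart.

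The marks met at the Ink4a-side peak. In WT mock cells the H3K27me3 block ran to 88928710 and overlapped 1923 bp, or 81.6%, of the H3K4me3 peak there. In the other conditions the block ended short of the H3K4me3 peak, by 363 bp in KO doxorubicin (block edge at 88927029), 122 bp in KO mock (88926954) and 1142 bp in WT doxorubicin cells (88926257). Thus 0 of 3 H3K4me3 peaks overlapped H3K27me3 in KO doxorubicin, 0 of 3 in KO mock, 0 of 3 in WT doxorubicin and 1 of 3 in WT mock cells. Over the whole lists 12.0%, 13.3%, 16.3% and 16.2% of H3K4me3 peaks did so, in the same order. Counts out of 3 are too few to set apart from these shares. The overlap in WT mock went with both a wider H3K4me3 peak and a longer H3K27me3 block in the list with the widest peaks, and the part of peak width in it was not tested. With peaks less than 3 kb apart joined, the 1198 bp of the Ink4a-side peak in KO doxorubicin cells lay inside the joined H3K27me3 stretch. This follows from the joining alone. The joining fills the 2.62-kb gap between the block and the 888-bp peak, where no H3K27me3 was listed.

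The Arf-side and Cdkn2b peaks overlapped no H3K27me3 in any library. The nearest H3K27me3 peak to the Arf-side peak was 8.23 kb away in KO doxorubicin, 12.7 kb in KO mock, 3.06 kb in WT doxorubicin and 2.44 kb in WT mock cells. The smaller distances in WT cells come from the peak between the Ink4a-side and Arf-side peaks that the WT lists alone held. The distances from the Cdkn2b peak were 23303 bp, 26997 bp, 17572 bp and 16992 bp in the same order.

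Lengths of 2 libraries were compared as a ratio and read beside all 70-kb tiles of the genome, laid end to end, that held a peak of the mark in either library. A tile was called different where its covered lengths differed by at least 1.5 times. A peak with no overlap of at least 1 bp in the compared list was called gained when it was in the first-named library and lost when it was in the other. The comparisons share libraries and are not independent of each other.

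Doxorubicin against mock in WT cells compared cells with and without induced DNA damage where lincRNA-p21 was present. H3K27me3 covered 10627 bp in WT doxorubicin and 15824 bp in WT mock cells, a ratio of 0.672 (log2 -0.57). This 1.49-fold difference lay just inside the 1.5-fold limit. With peaks of score at least 100 alone, the lengths were 9652 bp in WT doxorubicin and 15824 bp in WT mock cells, and the log2 ratio of -0.71 passed it. Of all tiles 56.4% passed that limit, and 36.7% of tiles with at least 5 kb covered in either library. The ratio over the whole lists was 0.812, and 32.3% of tiles with peaks in both libraries had a lower ratio than the locus. None of the 4 H3K27me3 peaks of WT doxorubicin was gained (29.3% of the list was), and none of the 4 of WT mock was lost (35.4%). H3K4me3 covered 8266 bp in WT doxorubicin and 10668 bp in WT mock cells. The ratio was 0.775 (log2 -0.37), with 0.961 over the whole lists and 11.7% of tiles called. A lower ratio was found at 11.5% of tiles with peaks in both libraries and at 4.4% of the 1863 tiles with at least 5 kb covered in either. The latter share was the lowest of all comparisons of both marks, and in the others it was 14.1 to 81.2%. No H3K4me3 peak of the locus was gained or lost, against 5.38% of the peaks of both lists. The Ink4a-side peak had the smallest width ratio, 0.612, with lower ratios at 2.1% of 13788 peaks matched between the lists, whose median was 0.919. The ratios of the Arf-side and Cdkn2b peaks were 0.814 and 0.827, with lower ratios at 20.8% and 23.5% of the matched peaks. Width ratios were added after seeing the data.

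The same treatment was compared in KO cells, which lack lincRNA-p21. H3K27me3 covered 12659 bp in KO doxorubicin and 9949 bp in KO mock cells, a ratio of 1.27 (log2 0.35). The whole lists had 0.99, and 53.2% of all tiles and 27.9% of those with at least 5 kb were called. The longer coverage lay mainly in the peak beyond the 3′ end of Cdkn2a, with 2603 bp in KO doxorubicin and 1091 bp in KO mock cells, and in the 888-bp peak. The 888-bp peak made 1 of 4 KO doxorubicin peaks gained, against 35.3% of the list, and 0 of 3 KO mock peaks was lost, against 34.1%. H3K4me3 covered 8169 bp in KO doxorubicin and 7355 bp in KO mock cells. The ratio was 1.11 (log2 0.15), with 1.08 over the whole lists and 12.5% of tiles called. None of its peaks was gained or lost (5.85% over both lists). Within it the places differed: the Arf-side peak had a width ratio of 1.42, with lower ratios at 95.4% of 12977 matched peaks, the Cdkn2b peak had 1.01 (40.0%) and the Ink4a-side peak had 0.814 (6.07%).

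KO against WT in mock-treated cells compared the genotypes without induced damage. H3K27me3 covered 9949 bp in KO mock and 15824 bp in WT mock cells. The ratio of 0.629 (log2 -0.67) was, with the lists as deposited, the one of 8 to pass the 1.5-fold limit, as 56.2% of all tiles and 39.4% of those with at least 5 kb did, so the locus was not unusual among tiles. The whole lists had a ratio of 0.756, and divided by it the locus had 0.832, within the limit. The peak between the Ink4a-side and Arf-side H3K4me3 peaks made 1 of 4 WT mock peaks lost (36.3% of the list), and 0 of 3 KO mock peaks was gained (25.5%). H3K4me3 covered 7355 bp in KO mock and 10668 bp in WT mock cells. The ratio was 0.689 (log2 -0.54), with 0.811 over the whole lists and 20.2% of tiles called. None of its peaks was gained or lost (5.70%). Width ratios were 0.624 at the Ink4a side, 0.629 at the Arf side and 0.781 at Cdkn2b, with a median of 0.852 over 12906 matched peaks. Of those matched peaks 8.01%, 8.38% and 31.0% had lower ratios, in the same order. WT mock held the widest peaks of all lists, and its part in these ratios was not tested beyond this division.

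KO against WT in doxorubicin-treated cells compared the genotypes under damage. H3K27me3 covered 12659 bp in KO doxorubicin and 10627 bp in WT doxorubicin cells, a ratio of 1.19 (log2 0.25). The whole lists had 0.922, and 51.8% of all tiles and 26.2% of those with at least 5 kb were called. The 888-bp peak made 1 of 4 KO doxorubicin peaks gained (32.2% of the list), and the peak nearer the Arf side made 1 of 4 WT doxorubicin peaks lost (35.3%). H3K4me3 covered 8169 bp in KO doxorubicin and 8266 bp in WT doxorubicin cells. The ratio was 0.988 (log2 -0.02), with 0.911 over the whole lists and 20.3% of tiles called. None of its peaks was gained or lost (8.34%). Width ratios were 0.831 at the Ink4a side, 1.1 at the Arf side and 0.954 at Cdkn2b. Of 13450 matched peaks, with a median of 0.985, 21.4%, 74.4% and 43.1% had lower ratios, in the same order.

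**Figure D4:**
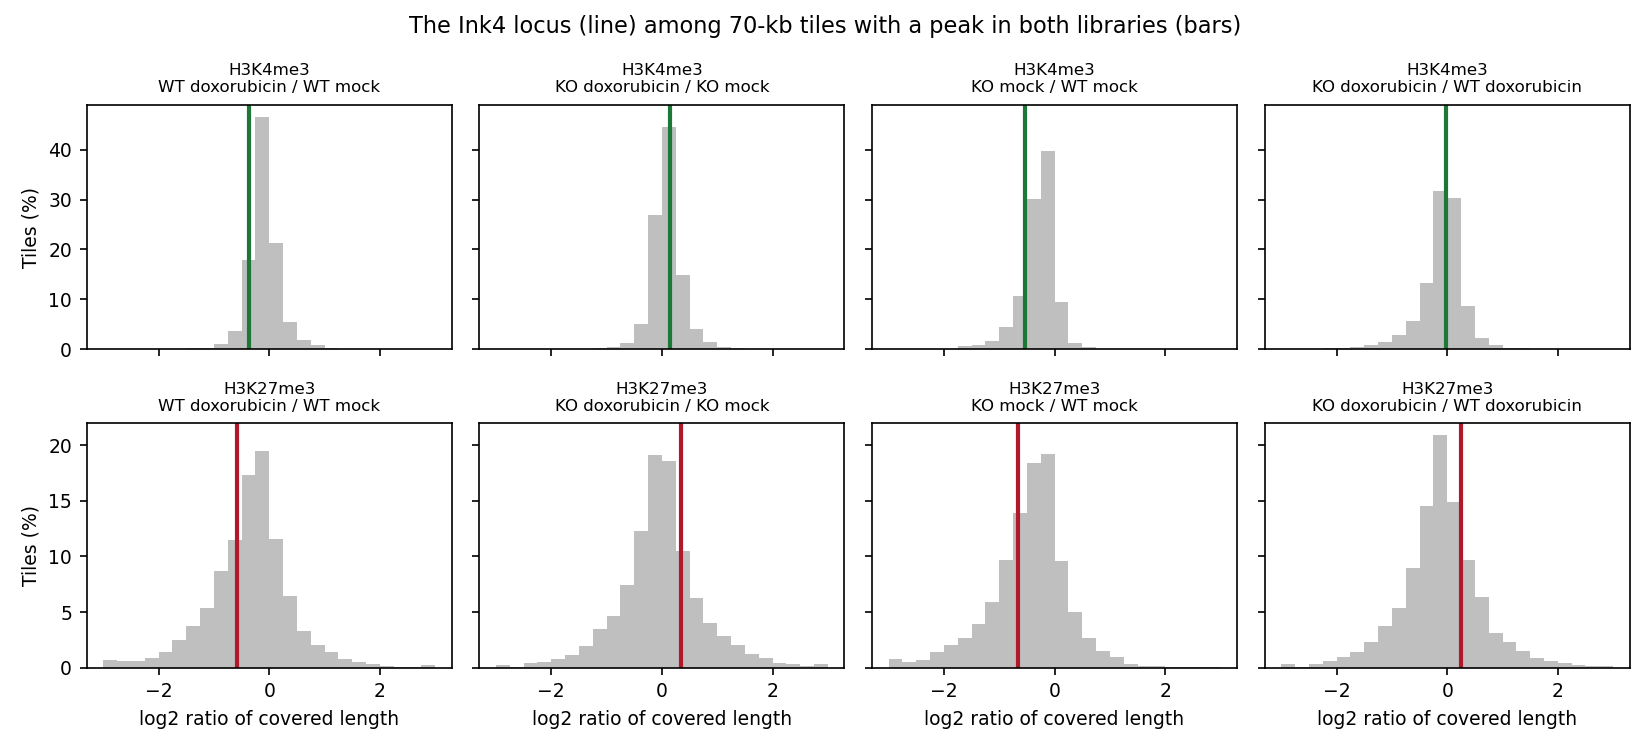
Log2 ratio of covered length in each comparison for 70-kb tiles with a peak of the mark in both libraries (grey bars, percent of tiles per 0.25 log2; the outermost bars also hold values past 3 in size) and for the Ink4 locus (line). Upper row H3K4me3, lower row H3K27me3. Of the tiles shown, 11.5 to 75.5% have a lower ratio than the locus, with the lowest share for H3K4me3 in WT doxorubicin against WT mock.

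The 5 tiles whose covered lengths were most like those of the locus over the 8 libraries were found among 13607 tiles by the smallest sum of absolute differences. The closest was chr17:23800001-23870000, followed by chr4:41650001-41720000, chr7:19530001-19600000, chr2:25200001-25270000 and chr7:134470001-134540000. Their sums of differences were 7.75 to 12.6 kb, beside 83.5 kb covered at the locus over the 8 libraries. In the closest, H3K27me3 covered 10.9 kb in KO doxorubicin, 9.2 kb in KO mock, 10.5 kb in WT doxorubicin and 14.1 kb in WT mock cells. No gene is named for these tiles, since no annotation of mm9 was used.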

How the data were processed

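ChIP-seq peak lists of H3K4me3 and H3K27me3 from MEFs in 4 conditions were used, with 1 library per mark and condition. Per the labels' protocols, cells were fixed in 1% formaldehyde for 10 min and chromatin was sonicated to 300 to 500 bp. The submitters' processing notes name Bowtie 0.12.7, MACS 1.4.2 and the mm9 build. The score deposited by the authors is the log10 of the p-value times 10 with its sign turned, per the file headers, 1 list per library, with no score under 80. Read depth is unknown.

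Starts in the lists were taken to count from 0, and mm9 positions are printed counting from 1. Peaks overlapping the locus were taken from each list, and lengths were counted after merging overlaps. Gained, lost and shared peaks used an overlap of at least 1 bp. Tiles were 70 kb long and included all chromosomes in the lists. For peak widths, peaks overlapping exactly 1 peak of the compared list, in both directions, were matched. Tiles with at least 5 kb covered and the width ratios were added after seeing the data. The members and the gene spans were chosen with earlier results of these data known. The rule for names took Cdkn2a and Cdkn2b and the 5 most similar tiles. Promoters came from RefSeq (GRCm38.p6), and both genes were found. Fibroblast markers, other pathway genes and the deleted lincRNA-p21 locus were not analysed here, as these would need an annotation of mm9. The 7 interval rules were tested on 4000 simulated peaks and gave back the numbers put in. Python 3.11.15, numpy 2.4.6, pandas 2.3.3 and matplotlib 3.10.9 were used.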

Additional observations from a re-analysis of the deposited data

Results flagged for a closer look

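The total covered length at the locus moved in opposite directions with doxorubicin in the 2 genotypes, for both marks, but not every peak did so. For H3K27me3 the log2 ratio of doxorubicin over mock was 0.35 in KO and -0.57 in WT cells, a difference of 0.922. Over 4418 tiles with H3K27me3 in all 4 libraries the median difference was 0.232, and 18.8% of tiles were at least as high as the locus. The block itself was close in length in KO cells, with 9168 bp in KO doxorubicin and 8858 bp in KO mock. In WT cells it had 7939 bp in WT doxorubicin and 12361 bp in WT mock, the list with the widest peaks. For H3K4me3 the log2 ratio was 0.15 in KO and -0.37 in WT cells, a difference of 0.519. The median over 9317 tiles was 0.182, and 15.0% were at least as high. The whole lists had a log2 ratio of 0.111 in KO cells, and divided by the whole lists the locus had 0.04 in KO and -0.311 in WT cells. The Ink4a-side peak was narrower with doxorubicin in both genotypes, with width ratios of 0.814 in KO and 0.612 in WT cells. The Arf-side peak had 1.42 in KO and 0.814 in WT cells, and the Cdkn2b peak 1.01 and 0.827. With 1 library per condition neither difference between the genotypes was tested.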

How the results depend on the processing

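With a score of at least 100, with equal numbers of the highest-scoring peaks (14326 for H3K4me3, 16160 for H3K27me3) and with the stretch widened by 20 kb, each of 20 lengths and ratios stayed within 1.5 times of its value, but 1 call against the 1.5-fold limit changed with the stricter score. A score of at least 100 drops the 975-bp H3K27me3 peak of WT doxorubicin, so that WT doxorubicin against WT mock had a log2 ratio of -0.713, past the limit, in place of -0.574. Then 2 of 8 ratios passed. Dividing by the ratio of the whole lists put H3K27me3 in KO mock against WT mock at -0.266, inside the limit, in place of -0.669, and then 0 of 8 passed. It also turned the small log2 ratio of H3K4me3 in KO doxorubicin against WT doxorubicin to 0.117, in place of -0.017. Joining peaks less than 3 kb apart gave 1198 bp with both marks in KO doxorubicin cells, where there was 0 bp. The joined H3K27me3 peak spans the Ink4a-side H3K4me3 peak, which lies in a gap without listed H3K27me3. Requiring an overlap of 50% of the peak gave 1 lost H3K27me3 peak in WT doxorubicin against WT mock in place of 0, and 2 gained in place of 1 in both KO doxorubicin against KO mock and KO doxorubicin against WT doxorubicin. Sharing within 1 kb changed none of the 16 counts. No library could be left out, since each condition and mark had 1. Peaks under the deposited score floor cannot be seen.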

Other observations

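The next listed H3K27me3 peak lay 400 to 402 kb below the locus and 291 to 313 kb above it in the 4 libraries. The usual spacing of such peaks was not computed, so whether these distances are long is unknown. The next H3K4me3 peak below lay 140 to 142 kb away in every library, at 88782516 in KO doxorubicin cells, with scores of 2616.84 to 3155.32. RefSeq (GRCm38.p6) has Mtap and Dmrta1 as the protein-coding neighbours of the 2 genes, and which of these peaks belong to them was not determined. Above the locus the next H3K4me3 peak lay 233 to 234 kb away in KO doxorubicin, WT doxorubicin and WT mock cells, with scores of 126.88 to 199.72, and 2081 kb away in KO mock cells, whose list lacks 2 peak numbers in that gap. The WT doxorubicin list lacks 1 H3K4me3 number among the peaks of the locus and 1 below them. Among the H3K27me3 peaks of the locus itself, the lists lack 2 numbers in KO doxorubicin, 1 in KO mock, 2 in WT doxorubicin and 0 in WT mock cells. These missing numbers lie between the peak beyond the 3′ end of Cdkn2a and the block in KO doxorubicin and KO mock cells, and in WT doxorubicin cells 1 lies there and 1 between the block and the peak nearer the Arf side.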
